A study of Homo sapiens with 6 samples.

Results

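The 38 genes described here encode the machinery of autophagy, and they were measured in SK-OV3 cells, a human ovarian cancer line, after the long non-coding RNA PVT1 had been lowered with siRNA. The members were taken as the rows of the deposited count table whose gene symbol equals a symbol on the list, and all 38 were found among its 59653 genes. They fall into 5 initiation genes, 11 genes of nucleation and membrane supply, 18 genes of conjugation and cargo binding, and 4 lysosomal regulators. Of the 38 members, 37 passed the filter on low counts and were tested, among 19008 tested genes in all. The member that did not pass was MAP1LC3A, which was at or near 0 in every library.

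Messenger RNA was sequenced in 6 libraries, 3 from siControl cells and 3 from siPVT1 cells. The siControl cells had received a pool of non-targeting siRNAs and the siPVT1 cells a mixture of 4 siRNAs against PVT1, and both groups were labelled wildtype and were collected 48 h after transfection in full serum. The comparison asked which transcripts change when PVT1 is lowered. With a single pool against PVT1 and a single control pool, effects of lower PVT1 and other effects of the siRNAs cannot be told apart. Both groups come from 1 cell line under a transient knockdown, and the labels do not say whether the 3 libraries of a group came from separate cultures, so p-values measure the spread between these libraries, which may be technical.

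Autophagy encloses cytoplasm in a closed membrane sac, the autophagosome, and delivers it to the lysosome for degradation. The ULK kinase complex starts the process, a class III PI3-kinase complex marks the membrane with phosphatidylinositol 3-phosphate, and ubiquitin-like conjugation then attaches the ATG8 proteins (LC3 and GABARAP) to the growing membrane, where cargo receptors bind them. The related transcription factors TFEB and TFE3 are known to switch on lysosomal and autophagy genes when nutrients are short. Much of the control of the pathway acts on proteins and their phosphorylation, which transcript counts do not measure.

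Library totals ran from 28383171 to 35059576 counts, and the members together took 0.257 to 0.282% of it. PVT1 itself had 3298, 4090.5 and 3377 normalised counts in the siControl libraries and 2350, 2111 and 2062 in the siPVT1 libraries, so that every siPVT1 library lay below every siControl library (log2 fold change −0.72, with a standard error (SE) of 0.097, edgeR adjusted p = 0.000342). Mitochondrially encoded genes took 5.26 to 5.81% of counts in siControl and 5.75 to 7.0% in siPVT1. The 7 markers of SK-OV3 cells (ERBB2, EPCAM, KRT7, KRT8, KRT18, KRT19 and PAX8) were all detected, with summed normalised counts of 26487 to 29649 in siControl and 32801 to 36291 in siPVT1. They went in both directions, with ERBB2 (log2 fold change −0.43) and KRT7 (−0.51) lower, KRT8 (0.32), KRT18 (0.37), KRT19 (2.30) and PAX8 (2627 to 5254 normalised counts) higher, and EPCAM (−0.54) not past the adjusted p. The 3 leukocyte markers PTPRC, CD3E and CD14 summed to 8.08 to 9.52 against 2.19 to 3.34, with CD3E at 0 throughout, and the hepatocyte markers ALB and APOA1 summed to 3.69 to 33.3 against 2.23 to 6.56. The 3 endothelial markers rose together, from a sum of 2046 to 2072 to a sum of 8608 to 10883, most of it from CDH5 (log2 fold change 2.22), with PECAM1 at 2.99 and VWF at 1.66. The 4 fibroblast markers summed to 126 to 135 against 501 to 522, most of it from COL1A1, while DCN and COL3A1 had at most 2.77 normalised counts in any library. The part of these markers in the results below was not tested, and in such bulk libraries fewer cells of a type and less RNA per cell cannot be told apart.

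The siPVT1 cells differed from siControl in both directions across the pathway, and most differences were small. A gene was counted as past both thresholds where its adjusted p was under 0.05 and its log2 fold change at least 1 in size, which is a fold of 2. PVT1 itself, at a log2 fold change of −0.72, was not past both. On this rule 3 of the 37 tested members were higher in siPVT1 (WIPI1, GABARAPL1 and TFEB), against 11.8% of all tested genes, and 2 were lower (ATG9A and ATG4D), against 9.64% of all tested genes. By the adjusted p alone, 14 members were higher, where 29.5% of all tested genes were, and 13 were lower, where 28.4% were. With libraries scaled by their total count alone, these were 13 higher and 20 lower, and over all tested genes 4477 and 6879 in place of 5612 and 5395. The other 10 members did not pass, which does not show that they were unaltered. Thus 73.0% of the members passed the adjusted p against 57.9% of all tested genes, while 13.5% passed both thresholds against 21.5%. The members were not matched to all tested genes for count level, on which such shares depend. All siPVT1 libraries lay above all siControl libraries in 15 members (33.2% of all tested genes) and below them in 14 (32.3% of all tested genes), and the libraries overlapped in 8. The median log2 fold change of the members was −0.11, and that of all tested genes was 0.001. Every member kept the sign of its log2 fold change under each alternative scaling, filter and test and without each library in turn.

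**Figure D1:**
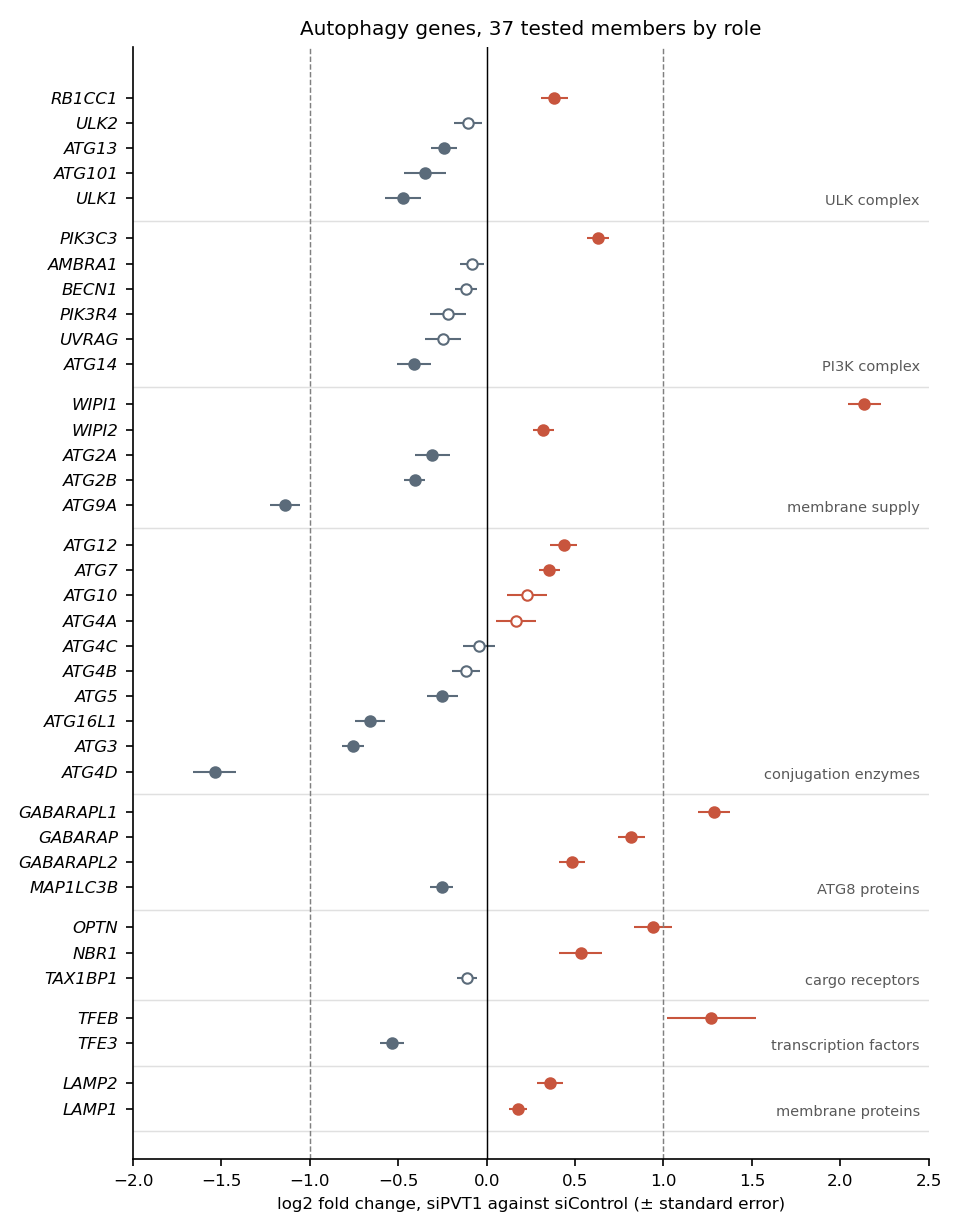
Log2 fold change of siPVT1 against siControl (horizontal axis) for the 37 tested members, grouped by role, with bars for ± 1 standard error from the edgeR fit on 3 libraries per group. Filled points passed an adjusted p of 0.05, open points did not, red points are above 0 and grey points below, and the dashed lines at −1 and 1 mark the fold threshold, which WIPI1, GABARAPL1, TFEB, ATG9A and ATG4D passed.

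Among the 5 initiation genes no member passed both thresholds, 3 were lower by the adjusted p (ULK1, ATG101 and ATG13) and 1 was higher (RB1CC1). Over all tested genes 28.4% were lower and 29.5% higher by the adjusted p. ULK1, the kinase that starts autophagosome formation and is itself restrained by mTORC1, had 955, 955 and 906 normalised counts in siControl and 758, 694 and 577 in siPVT1. The groups did not overlap, and ULK1 fell by 0.47 on the log2 scale (SE 0.103, adjusted p = 0.00458). RB1CC1, also called FIP200, is the scaffold that holds the ULK complex together, and it moved in the other direction. Its normalised counts were 6529.9, 6183 and 6589 in siControl and 9000.2, 8613 and 7544 in siPVT1. All siPVT1 libraries were above siControl, with a log2 fold change of 0.38 (SE 0.076, adjusted p = 0.00280).

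ATG13 and ATG101 are the partner subunits through which ULK1 joins RB1CC1. ATG13 went from 2986, 2967 and 2890.3 normalised counts to 2274, 2477 and 2721, with no overlap (log2 fold change −0.24, SE 0.074, adjusted p = 0.0224). ATG101 went from 995, 827 and 962 to 661, 669 and 852, and here the third siPVT1 library lay above the second siControl library (log2 fold change −0.35, SE 0.120, adjusted p = 0.0345). Both calls were near the threshold. The ATG13 call was lost without siControl replicate 1, 2 or 3 or siPVT1 replicate 2 (adjusted p 0.0514 to 0.0704), and the ATG101 call without siControl replicate 1 or 3 or siPVT1 replicate 1 or 2 (adjusted p 0.0653 to 0.113). ULK2, the paralog of ULK1, had a log2 fold change of −0.11 that did not pass (adjusted p = 0.291), though it passed as lower with total count scaling (adjusted p = 0.0258).

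Of the 6 genes of the class III PI3-kinase complex, 1 rose, 1 fell and 4 did not pass (57.9% of all tested genes passed). PIK3C3, the catalytic lipid kinase VPS34, was the one that rose. It had 937, 978 and 953 normalised counts in siControl and 1529, 1473 and 1439 in siPVT1. The libraries within each group lay close together and the groups were far apart (log2 fold change 0.63, SE 0.062, adjusted p = 6.40e-05). ATG14, the subunit that directs the complex to sites of autophagosome formation, fell by 0.41 on the log2 scale (SE 0.097, adjusted p = 0.00644). The other 4 did not pass: the scaffold BECN1 (−0.12), the regulatory kinase-like subunit PIK3R4 (−0.22), UVRAG, which takes the place of ATG14 in a second form of the complex (−0.25), and the BECN1 regulator AMBRA1 (−0.08). Of these, BECN1 and PIK3R4 passed without siPVT1 replicate 3 (adjusted p = 0.0113 and 0.000143), and UVRAG passed without siPVT1 replicate 1 (adjusted p = 0.00647). With libraries scaled by their total count alone, all 4 passed as lower (adjusted p 0.00321 to 0.0167).

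The 5 genes of membrane supply all passed the adjusted p, as did 57.9% of all tested genes. They held the member with the largest fold change of the list in either direction. WIPI1, a propeller-shaped protein that reads phosphatidylinositol 3-phosphate on the forming membrane, had 594, 557 and 509 normalised counts in siControl and 2555, 2568 and 2179.9 in siPVT1. Its mean rose from 553 ± 42.7 (SD, n = 3) to 2434 ± 220.2 (SD, n = 3), a 4.4-fold difference (log2 fold change 2.14, SE 0.094, adjusted p = 1.64e-06), and it ranked 140th by p among all tested genes. WIPI1 lies at chr17:68420948-68457513 on the minus strand of GRCh38 in the GENCODE v44 annotation. Opposite-strand genes, ARSG among them, cover 28.1% of its exon bases, and ARSG itself did not pass (log2 fold change 0.29, adjusted p = 0.199). WIPI2, the paralog that recruits the conjugation machinery through ATG16L1, also rose (log2 fold change 0.32, SE 0.060, adjusted p = 0.00202).

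ATG9A, the multi-spanning protein of the vesicles that seed the autophagosome and a lipid scramblase, was the member with the second largest fall. It had 1697, 1722 and 1749.5 normalised counts in siControl and 871, 764 and 713 in siPVT1, so that its highest siPVT1 library was still far below its lowest siControl library. The 2.2-fold fall (log2 fold change −1.14, SE 0.083, adjusted p = 1.48e-05) also made it the lower member just inside the fold threshold, and it did not pass a test against a fold of 2. ATG9A lies at chr2:219219380-219229717 on the minus strand, and 38.8% of its exon bases are shared with an overlapping same-strand gene without a symbol (ENSG00000284820), so the division of reads between the pair is uncertain. ATG2A and ATG2B, the lipid transfer proteins that feed the membrane, were both lower, at −0.31 (SE 0.101, adjusted p = 0.0294) and −0.41. ATG2B went from 2285, 2211 and 2288 normalised counts to 1641, 1719 and 1754, with no overlap (SE 0.058, adjusted p = 0.000488). The ATG2A call was lost without siControl replicate 1, 2 or 3 or siPVT1 replicate 2 (adjusted p 0.0679 to 0.0859).

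**Figure D2:**
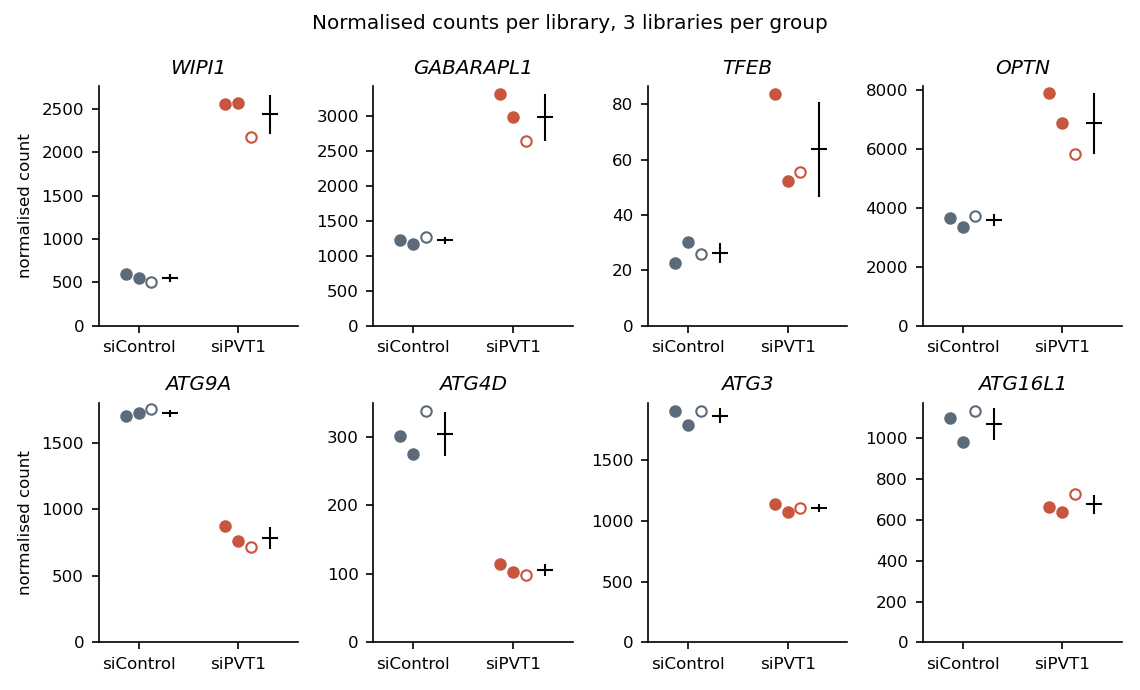
Normalised counts (vertical axes, each from 0) of 8 members in each of the 3 siControl (grey) and 3 siPVT1 (red) libraries, with replicate 3 drawn open and the bars giving mean ± SD. The 8 shown have the largest log2 fold changes of the members in each direction. All 8 separate the groups without overlap, with WIPI1, GABARAPL1, TFEB and OPTN higher in siPVT1 and ATG9A, ATG4D, ATG3 and ATG16L1 lower. Over all tested genes, 33.2% lay higher and 32.3% lower without overlap.

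Of the 10 conjugation enzymes, 2 rose, 4 fell and 4 did not pass (57.9% of all tested genes passed). ATG7, the E1-like enzyme that activates both ATG12 and the ATG8 proteins, rose by a log2 fold change of 0.35 (SE 0.058, adjusted p = 0.00105), and the ubiquitin-like ATG12 rose by 0.44 (SE 0.075, adjusted p = 0.00137). The E2-like enzyme ATG3, which passes ATG8 proteins on to phosphatidylethanolamine, fell. It had 1911, 1796 and 1904 normalised counts in siControl and 1143, 1072 and 1111 in siPVT1, a 1.69-fold fall with tight groups (log2 fold change −0.75, SE 0.062, adjusted p = 2.71e-05), and it was the lower member just outside the fold threshold. ATG16L1, which brings the ATG12 and ATG5 conjugate to the membrane, fell by 0.66 (SE 0.085, adjusted p = 0.000286), and its libraries spanned 983 to 1132 normalised counts in siControl and 640.3 to 729 in siPVT1. ATG5 itself, the acceptor of ATG12, was lower by a log2 fold change of −0.25 (SE 0.087, adjusted p = 0.0361), a call lost without siControl replicate 1 or 3 or siPVT1 replicate 1 or 2 (adjusted p 0.0557 to 0.109).

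ATG4D showed the largest fall of all members. It belongs to the ATG4 cysteine proteases, which trim ATG8 precursors and also release ATG8 proteins from the membrane. Its normalised counts were 301, 275 and 338 in siControl and 115, 103 and 97.7 in siPVT1. The mean fell from 305 ± 31.8 (SD, n = 3) to 105 ± 8.73 (SD, n = 3), a 2.90-fold difference (log2 fold change −1.54, SE 0.121, adjusted p = 2.14e-05). ATG4D lies at chr19:10543895-10553418 on the plus strand, and 14.7% of its exon bases lie opposite the gene KRI1, which was also lower (log2 fold change −0.52, adjusted p = 0.00371). The other 3 proteases did not pass, with log2 fold changes of 0.17 for ATG4A, −0.12 for ATG4B and −0.05 for ATG4C. However, ATG4B passed as lower without siPVT1 replicate 3 (adjusted p = 0.0170) and with total count scaling (adjusted p = 0.0188). The E2-like enzyme for ATG12, ATG10, was above siControl in all 3 siPVT1 libraries but did not pass (log2 fold change 0.23, adjusted p = 0.124).

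The ATG8 proteins, which coat the inner and outer autophagosome membrane, moved in both directions: the 3 GABARAP genes rose and MAP1LC3B, the only LC3 gene of the list that was tested, was lower. GABARAPL1 had 1226, 1171 and 1277 normalised counts in siControl and 3321, 2992 and 2642 in siPVT1. It was 2.44-fold higher, and its lowest siPVT1 library was above its highest siControl library (log2 fold change 1.28, SE 0.091, adjusted p = 1.26e-05). GABARAP went from 1181, 1014 and 1141 normalised counts to 1894, 2061 and 1932 (log2 fold change 0.82, SE 0.077, adjusted p = 5.13e-05). GABARAPL2 went from 1616, 1495 and 1644 to 2385, 2181 and 2086 (log2 fold change 0.48, SE 0.073, adjusted p = 0.000678). None of these groups overlapped. By the adjusted p, 29.5% of all tested genes were higher and 28.4% lower. The libraries did not overlap in 33.2% of all tested genes on the higher side and 32.3% on the lower side.

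MAP1LC3B, whose lipid-bound protein form is the usual marker of autophagosomes, had 3839, 3878 and 3804 normalised counts in siControl and 3119, 3069 and 3471 in siPVT1. The siPVT1 libraries were all below the siControl libraries (log2 fold change −0.25, SE 0.065, adjusted p = 0.00977). MAP1LC3A was listed at 0, 0 and 0.924 normalised counts in siControl and at 2.23, 1.09 and 0 in siPVT1, and no fold was computed. GABARAPL1 lies at chr12:10212458-10223128 on the plus strand. Its near-identical relative GABARAPL3 had at most 2.82 normalised counts in any library and its antisense gene GABARAPL1-AS1 was at 0 in all 6. MAP1LC3B2, the close copy of MAP1LC3B, had 126 to 168 normalised counts in siControl and 107 to 156 in siPVT1, which did not pass (adjusted p = 0.608). For GABARAP, 35.4% of the exon bases are shared with a same-strand gene (ENSG00000262526), so its count is uncertain to that extent.

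Of the 3 cargo receptors, OPTN and NBR1 rose and TAX1BP1 did not pass (57.9% of all tested genes passed). OPTN (optineurin), a receptor for ubiquitin-tagged mitochondria and bacteria, had 3667, 3354 and 3717 normalised counts in siControl and 7902, 6861 and 5829 in siPVT1. The groups were well apart, but the siPVT1 libraries spread widely (log2 fold change 0.94, SE 0.108, adjusted p = 0.000150). This was the higher member just outside the fold threshold, as TFEB at 1.27 was the higher member just inside it, and without siPVT1 replicate 3 the log2 fold change of OPTN was 1.03. NBR1, a receptor for ubiquitin-tagged aggregates and peroxisomes, went from 6307, 5835 and 6277 normalised counts to 10382, 9104 and 7127 (log2 fold change 0.53, SE 0.124, adjusted p = 0.00653). TAX1BP1 had a log2 fold change of −0.11 (adjusted p = 0.129). It passed as lower without siPVT1 replicate 1 (adjusted p = 0.0347) and with total count scaling (adjusted p = 0.00235).

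The 4 lysosomal regulators all passed the adjusted p, as did 57.9% of all tested genes, and the 2 transcription factors moved in opposite directions. TFEB had 22.9, 30.3 and 25.9 normalised counts in siControl and 83.5, 52.4 and 55.4 in siPVT1. It was 2.41-fold higher without overlap (log2 fold change 1.27), with a SE of 0.251 that was the largest of all members, from counts that were the lowest of the tested members (adjusted p = 0.00277). TFEB did not pass a test against a fold of 2. It lies at chr6:41683978-41736259 on the minus strand. TFE3, the X-linked relative of TFEB, was far more abundant and fell. Its normalised counts were 2926, 2808 and 2832 in siControl and 2119, 1898 and 1891 in siPVT1 (log2 fold change −0.54, SE 0.066, adjusted p = 0.000218).

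LAMP2 and LAMP1 encode the abundant glycoproteins of the lysosomal membrane. LAMP2 had 5664, 5287 and 5853 normalised counts in siControl and 7563, 7400.3 and 6571 in siPVT1, with no overlap (log2 fold change 0.36, SE 0.073, adjusted p = 0.00327). LAMP1 went from 6775, 6909 and 6682 to 7779.7, 7618 and 7616, a smaller difference between tight groups (log2 fold change 0.18, SE 0.051, adjusted p = 0.0174). The LAMP1 call was lost when libraries were scaled by their total count alone (log2 fold change 0.03, adjusted p = 0.688), without a filter (adjusted p = 0.0566), with the replicate block (adjusted p = 0.0510), and without siControl replicate 1 or 3 or siPVT1 replicate 2 (adjusted p 0.0704 to 0.0889).

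The promoters of the members were searched for the letters that TFEB and TFE3 are known to bind, the palindrome TCACGTGA and the shorter E-box CACGTG that it contains. Both read the same on either strand, so 1 strand was searched. RefSeq promoter windows of 300 bases, 250 before and 50 after the transcription start, were found for 33 of the 38 members (41 windows), and none was used for ATG4D, MAP1LC3A, LAMP2, UVRAG or RB1CC1. TCACGTGA was present in 2 of the 41 windows (4.88%), those of LAMP1 and ATG3, where 0.980% of 35116 promoter windows of all genes held it. CACGTG was present in 3 of 41 (7.32%), the same 2 and ATG14, where 7.26% of all windows held it. In the other autophagy and lysosome genes described further below, 12 of 163 windows held TCACGTGA (7.36%) and 27 of 163 held CACGTG (16.6%).

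The 3 promoters with a match are shown first. Those of WIPI1 and GABARAPL1 follow, because these genes rose most among the members and their windows held neither run of letters. Each is printed 5′ to 3′ from 250 bases before the RefSeq start to 30 bases after it (280 bases, GRCh38.p14), with capitals marking matches to CACGTG or, where the flanking letters fit, to TCACGTGA. The windows are chr13:113296989-113297268 (plus strand) for LAMP1, chr3:112561933-112562212 (minus) for ATG3, chr14:55411801-55412080 (minus) for ATG14, chr17:68457467-68457746 (minus) for WIPI1 and chr12:10212627-10212906 (plus) for GABARAPL1.
LAMP1: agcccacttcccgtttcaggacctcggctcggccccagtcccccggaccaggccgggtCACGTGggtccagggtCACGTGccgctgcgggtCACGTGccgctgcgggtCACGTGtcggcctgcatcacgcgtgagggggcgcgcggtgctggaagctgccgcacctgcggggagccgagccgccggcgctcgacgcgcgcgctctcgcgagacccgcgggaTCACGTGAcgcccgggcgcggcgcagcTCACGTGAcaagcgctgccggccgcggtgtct
ATG3: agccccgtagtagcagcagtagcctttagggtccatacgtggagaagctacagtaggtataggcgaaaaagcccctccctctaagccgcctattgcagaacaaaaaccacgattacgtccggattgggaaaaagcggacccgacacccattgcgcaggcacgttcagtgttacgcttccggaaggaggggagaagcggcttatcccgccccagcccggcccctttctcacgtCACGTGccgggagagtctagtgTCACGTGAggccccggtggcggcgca
ATG14: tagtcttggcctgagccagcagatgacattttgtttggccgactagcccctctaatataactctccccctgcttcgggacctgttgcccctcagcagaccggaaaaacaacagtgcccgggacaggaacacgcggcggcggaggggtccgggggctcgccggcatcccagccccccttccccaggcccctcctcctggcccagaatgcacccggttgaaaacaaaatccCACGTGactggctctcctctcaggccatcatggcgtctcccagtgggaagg
WIPI1: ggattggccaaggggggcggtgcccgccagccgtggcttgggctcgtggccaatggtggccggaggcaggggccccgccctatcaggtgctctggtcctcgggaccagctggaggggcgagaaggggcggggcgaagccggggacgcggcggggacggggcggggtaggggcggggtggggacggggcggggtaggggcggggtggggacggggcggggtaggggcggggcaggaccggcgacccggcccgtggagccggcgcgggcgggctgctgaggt
GABARAPL1: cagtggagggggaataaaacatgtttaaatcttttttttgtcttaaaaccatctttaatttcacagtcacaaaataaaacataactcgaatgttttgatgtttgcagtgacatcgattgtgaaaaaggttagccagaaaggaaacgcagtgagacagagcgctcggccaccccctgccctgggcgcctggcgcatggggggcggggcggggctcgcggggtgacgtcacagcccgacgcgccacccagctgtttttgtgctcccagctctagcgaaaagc

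LAMP1 held 6 CACGTG runs. Of these, 4 stood close together, starting 192, 176, 159 and 142 bases before the start, and the other 2 were each part of a TCACGTGA run, which began 29 and 2 bases before the start. ATG3 held 2 CACGTG runs, 1 beginning 18 bases before the start and 1 inside a TCACGTGA run that began 4 bases after the first transcribed base, and ATG14 held 1, beginning 21 bases before the start. LAMP1, with the most matches, had a log2 fold change of 0.18, while ATG3 (−0.75) and ATG14 (−0.41) fell. The LAMP1 call was lost under several alternatives, with total count scaling among them (log2 fold change 0.03). The base composition also differed, with 75.4% G and C for LAMP1, 79.6% for WIPI1, 62.1% for ATG14, 59.3% for ATG3 and 51.4% for GABARAPL1. A match is only a description of the letters, and its absence says only that these letters are not in the window.

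Levels can be compared between members only per transcript length, and normalised counts were therefore divided by the kilobases of the GENCODE v44 canonical transcript. On this scale LAMP1 ranked first in siControl, at 2513 ± 42.2 (SD, n = 3) per kb, followed by BECN1 at 2191, MAP1LC3B at 1789, GABARAPL2 at 1627 and NBR1 at 1331. With this length the first 4 of these differed beyond their spread, each above the next in every library, whereas NBR1 overlapped TAX1BP1 (1322 per kb). Below them lay ATG3 (1193), then OPTN (1029) overlapping RB1CC1 (970), and TFE3, LAMP2 and GABARAP overlapped in turn at 868, 857 and 843 per kb. The middle of the order ran from ATG13 (694) to AMBRA1 (228), with GABARAPL1 (650.2), ATG101 (648) and WIPI2 (615) in one overlapping run, ATG9A (457) overlapping ATG12 (454), and ATG16L1 (325), WIPI1 (290.0) and ATG7 (282) in another. The 7 genes from ULK1 (176) to ATG2A (145) overlapped each with the next. At the low end, PIK3C3 (102), ATG10 (55.9), ULK2 (45.3), TFEB (11.3) and MAP1LC3A (0.319) were each clear of the next. This order rests on the length chosen. With coding lengths MAP1LC3B ranked first and LAMP1 second, with the longest annotated transcripts NBR1 ranked first (1319 per kb), LAMP1 second (1295), BECN1 seventh and GABARAPL2 at rank 11, and only the last 3 members, ULK2, TFEB and MAP1LC3A, kept their rank under both (lengths compared after seeing the data).

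From siControl to siPVT1, WIPI1 moved furthest in the order by canonical length, from rank 23 of 38 in siControl to rank 9 in siPVT1, where its level per kb was 1276 ± 115 (SD, n = 3). GABARAPL1 moved from rank 14 to 6 (1585 per kb), where its libraries overlapped those of MAP1LC3B, which went from rank 3 to 7 (1499.7 per kb). OPTN moved from rank 8 to 4 (1973 per kb). In the other direction ATG3 moved from rank 7 to 14 (707 per kb), ATG9A from 18 to 24 (208 per kb) and TFE3 from 10 to 16 (598 per kb). TFEB stayed at rank 37 (27.3 per kb), so that after its 2.41-fold rise it was still the least abundant tested member.

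**Figure D3:**
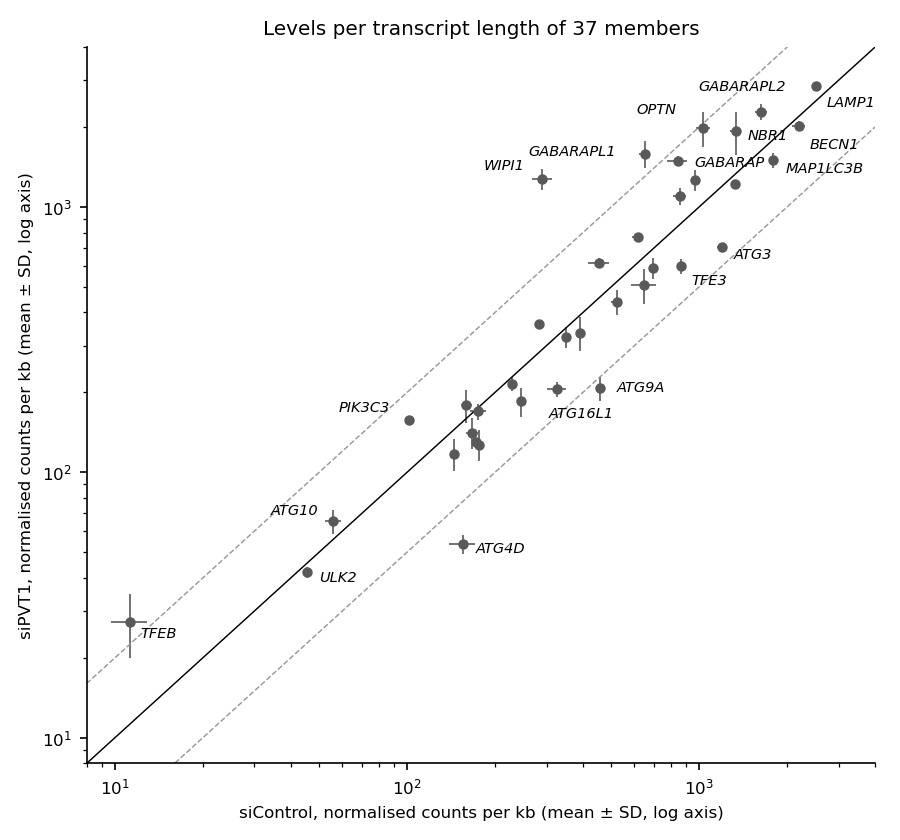
Level of each of the 37 tested members in siPVT1 (vertical) against siControl (horizontal), as normalised counts per kb of canonical transcript on log axes, with bars for ± SD over 3 libraries. The solid line marks equal levels and the dashed lines a fold of 2 either way. WIPI1, GABARAPL1 and TFEB lie above the upper dashed line and ATG9A and ATG4D below the lower one.

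Because several steps of the pathway can be served by paralogs, the share of each paralog in its family's summed level per kb was computed in every library. The shares of 14 paralogs were tested by a 2-sided exact permutation test, which cannot go below p = 0.1 with 3 libraries against 3, so no share could pass 0.05. WIPI1 made up 32.8, 33.3 and 29.9% of the WIPI1 and WIPI2 total in siControl and 63.8, 63.9 and 59.2% in siPVT1, and the total rose to 2.26 times its siControl mean. The groups did not overlap (exact permutation p = 0.1, adjusted p = 0.14). Which of the pair was the larger in siPVT1 depends on the length, since the canonical transcript of WIPI2 is 4445 bases and that of WIPI1 1908, and in normalised counts not divided by length WIPI2 (3416) still exceeded WIPI1 (2434). Within the ATG8 family, MAP1LC3B made up 36.5 ± 1.49% (SD, n = 3) in siControl and 21.9 ± 2.15% in siPVT1, GABARAPL1 13.2 ± 0.272% and 23.1 ± 1.83%, and GABARAP 17.2 ± 0.847% and 21.7 ± 1.38% (exact permutation p = 0.1 for each). GABARAPL2 held 33.1% and 33.2% (exact permutation p = 1), a difference whose sign turned with the longest transcript in place of the canonical one. The family total per kb was 4909.7 ± 154 (SD, n = 3) in siControl and 6850.3 ± 240.2 in siPVT1, a ratio of 1.40. The size of every such share rests on the length chosen. In siControl, MAP1LC3B was at 1789 and GABARAPL2 at 1627 per kb of canonical transcript. Per kb of coding length they were at 10241 and 4516. The share of MAP1LC3B fell by each length, with differences of −14.5 points (canonical), −18.2 (coding) and −15.7 (longest transcript).

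ATG4D made up 18.4 ± 1.18% (SD, n = 3) of the ATG4 family in siControl and 7.46 ± 1.24% in siPVT1, while the shares of ATG4A, ATG4B and ATG4C were 5.62, 2.77 and 2.60 points higher, each without overlap, in a total that was 0.862 of its siControl level. TFEB made up 1.29 ± 0.205% of the TFEB and TFE3 total in siControl and 4.33 ± 0.818% in siPVT1, and the summed level of both factors was 0.712 of that in siControl. ULK1 held 79.6 ± 0.938% of the ULK1 and ULK2 total in siControl and 75 ± 2.01% in siPVT1 (exact permutation p = 0.1), with a total 0.763 of siControl. The libraries overlapped for ATG2A against ATG2B (45.7% and 47.4%, exact permutation p = 0.7), for LAMP1 against LAMP2 (74.6% and 72.1%, exact permutation p = 0.2) and for MAP1LC3A, which held at most 0.0325% of the ATG8 family. These share levels hold for canonical lengths only. In siControl, LAMP1 and LAMP2 were at 2513 and 857 per kb of canonical transcript, but at 5427 and 4554 per kb of coding length. The shares of a family sum to 100%, so they do not move separately, and the larger shares of ATG4A, ATG4B and ATG4C stand beside log2 fold changes of their own counts that did not pass (0.17, −0.12 and −0.05).

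**Figure D4:**
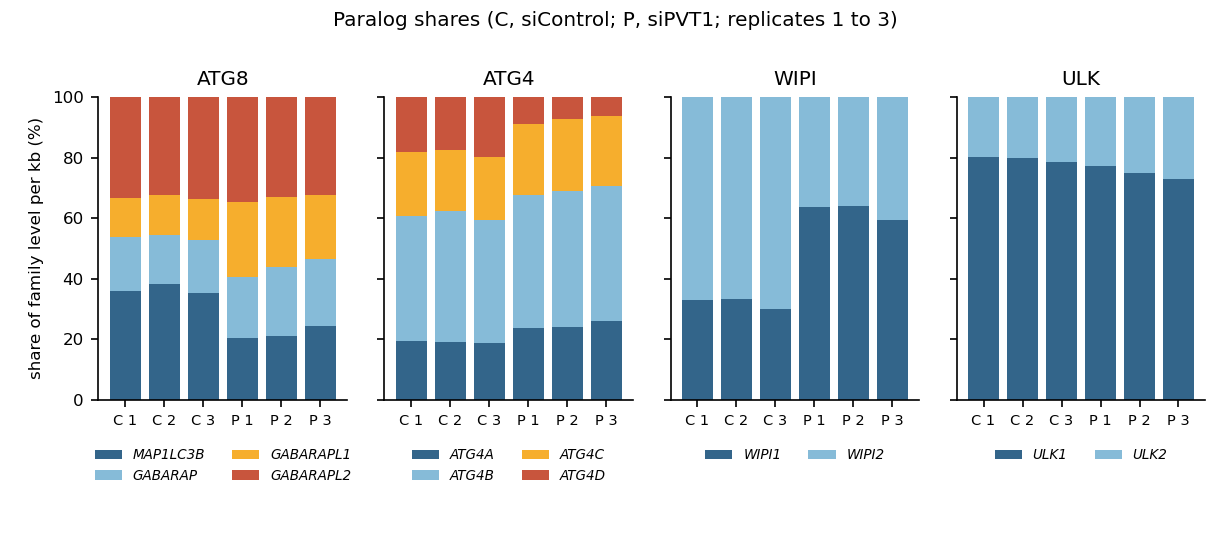
Share of each paralog (stacked bars, % of the family's summed normalised counts per kb) in the 3 siControl (C) and 3 siPVT1 (P) libraries for the ATG8, ATG4, WIPI and ULK families, with MAP1LC3A too low to be seen and left out. WIPI1 goes from 29.9 to 33.3% to 59.2 to 63.9%, GABARAPL1 takes a larger and MAP1LC3B a smaller share of the ATG8 family, and ATG4D shrinks within the ATG4 family.

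The members varied less between libraries than all tested genes did at the median, and the siPVT1 libraries differed among themselves more than the siControl libraries did. The median coefficient of variation of the tested members was 4.30% in siControl and 8.31% in siPVT1, against 6.90% and 13% over all tested genes, and the largest values among members were 14.2% and 26.9%, the last for TFEB. The members were not matched to all tested genes for count level, on which the coefficient of variation depends. Among the 27 members past the adjusted p, siPVT1 replicate 3 lay nearest to the siControl mean in 16, replicate 1 in 10 and replicate 2 in 1. The farthest library was replicate 1 in 14 of them, replicate 3 in 8 and replicate 2 in 5. OPTN, NBR1, LAMP2 and GABARAPL1 were among those with replicate 1 farthest and replicate 3 nearest, whereas for ATG9A, ATG4D, ULK1 and ATG14 replicate 3 was farthest.

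The other genes of autophagy and the lysosome were described from 7 further lists of 156 genes, of which 154 were tested. Across them 8 genes were higher and 4 lower past both thresholds, and 59 were higher and 46 lower by the adjusted p, with a median log2 fold change of 0.08. Leaving out 1 library gave 7 to 11 higher and 4 to 7 lower genes past both thresholds, the 7 lower genes coming without siPVT1 replicate 3, and scaling by the total count alone gave 10 lower genes. Of all tested genes 57.9% passed the adjusted p and 21.5% passed both thresholds, against 68.2% and 7.79% of these. The lists were likewise not matched to all tested genes for count level. Of the 11 tested genes of further core machinery, 7 were higher and 2 lower by the adjusted p, with a median log2 fold change of 0.49. ATG16L2, the paralog of ATG16L1, was the 1 past both thresholds, and it rose while ATG16L1 fell (659 ± 26 to 1417 ± 110.0 normalised counts, SD, n = 3, log2 fold change 1.10, adjusted p = 1.39e-05). With total count scaling ATG16L2 was at 0.95 and no gene of that list was past both thresholds. VMP1, named after its value was seen, passed both without siPVT1 replicate 3 (1.02).

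Over all tested genes, 29.5% were higher and 28.4% lower by the adjusted p, and 21.5% passed both thresholds. Of the 14 genes for fusion with the lysosome, 3 were higher and 6 lower by the adjusted p and none passed both thresholds, with a median of −0.24. Total count scaling took PLEKHM1 (−1.13) and VPS33A (−1.07) past both, and PLEKHM1 also passed both without siControl replicate 2 or siPVT1 replicate 1 or 2, and VPS33A without siPVT1 replicate 3 (these genes were named after their values were seen). Of 14 other cargo receptors, 5 were higher and 3 lower, with a median of 0.01, and CALCOCO1, a receptor for the endoplasmic reticulum and Golgi, passed both thresholds at 1.08 (adjusted p = 0.000481), though not without siPVT1 replicate 1 or with total count scaling. The list of mTORC1 and AMPK, the kinases that hold back and promote ULK1, also holds their regulators, inhibitors such as TSC1 and DEPTOR among them. Its 27 genes split into 8 higher, 10 lower and 9 that did not pass, none past both thresholds, with a median of −0.14. Chosen likewise after their values were seen, MTOR passed both with total count scaling (−1.02) or without siPVT1 replicate 3, RRAGA without siControl replicate 1 or siPVT1 replicate 2, and RRAGD without siControl replicate 3 or siPVT1 replicate 3.

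Of the 23 subunit genes of the V-ATPase, the proton pump that acidifies the lysosome, 3 were higher and 8 lower by the adjusted p. The 3 past both thresholds fell. ATP6V0C, the proteolipid of the rotor ring, went from 2729 ± 18.8 (SD, n = 3) to 567 ± 57.0 normalised counts (log2 fold change −2.27, adjusted p = 7.92e-07). ATP6V0D1 fell by 1.80 (adjusted p = 1.57e-06) and ATP6V0A2 by 1.06 (adjusted p = 0.000969) on the log2 scale, while the median of the list was −0.003. The ATP6V0A2 libraries were 1008, 1032 and 1060.4 normalised counts in siControl and 379, 455 and 648 in siPVT1, and without siPVT1 replicate 1 its log2 fold change was −0.92 and no longer past both thresholds. Named after its value was seen, ATP6V1E2 passed both with total count scaling (−1.12) or without siPVT1 replicate 3 (−1.08). ATP6V1B1, at 18.6 normalised counts or fewer in each library, did so without siPVT1 replicate 3.

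The 43 lysosomal hydrolases and activators had 24 higher and 9 lower genes by the adjusted p (29.5% and 28.4% of all tested genes), with a median log2 fold change of 0.29. All 4 past both thresholds (9.30% of the list) were higher, where 11.8% of all tested genes were higher past both. The 3 with the smallest p were the cathepsins CTSS and CTSK and the lysosomal alpha-mannosidase MAN2B1. CTSS went from 1124 ± 26.7 (SD, n = 3) to 3425 ± 101 normalised counts (log2 fold change 1.61, adjusted p = 7.92e-07), MAN2B1 had a log2 fold change of 1.18 (adjusted p = 1.46e-05) and CTSK one of 1.28 (adjusted p = 0.000564). CTSF, named after its value was seen, had a log2 fold change of 1.75 from 17.1 to 57.9 mean normalised counts. CTSV, named likewise, passed both thresholds without siControl replicate 3 (1.10). The 22 lysosomal membrane genes had 9 higher and 8 lower, with a median of 0.16. NPC1, which exports cholesterol from the lysosome, had a log2 fold change of 1.49 (adjusted p = 2.2e-05), the cation channel gene TPCN1 one of 1.53 (adjusted p = 2.26e-05), and TMEM192 fell by 1.22 (adjusted p = 8.50e-06). Total count scaling also took CLN3 (−1.09) and CLCN7 (−1.08) past both thresholds, and TMEM175 passed both without siPVT1 replicate 2 (−1.07). These genes were named after their values were seen. In the test against a fold of 2, ATG16L2, CALCOCO1, ATP6V0A2, CTSK and MAN2B1 did not pass (adjusted p 0.074 to 0.782). The counts given for the lists describe them and were not tested against other genes.

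**Figure D5:**
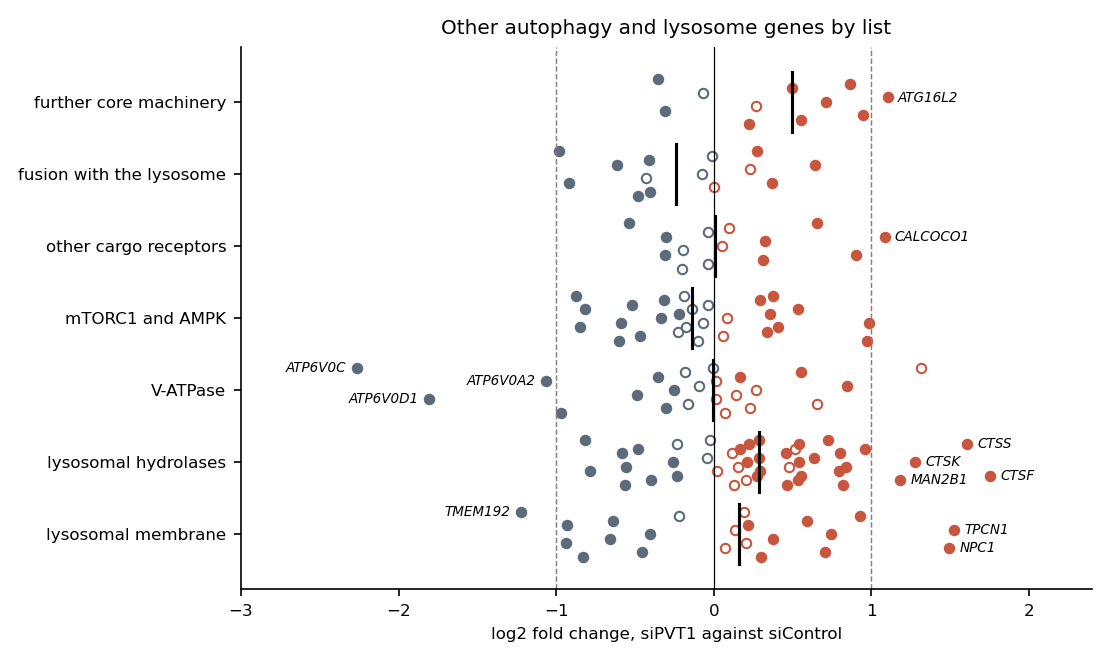
Log2 fold change of siPVT1 against siControl (horizontal axis) for 154 tested genes in 7 other lists of the autophagy and lysosome system, with 1 point per gene, filled where the adjusted p was under 0.05, red above 0 and grey below, and a black bar at each list's median. Dashed lines mark the fold threshold, and the 12 labelled genes passed both thresholds, among them 3 V-ATPase subunits on the lower side and 4 hydrolases on the higher side. Over all tested genes 21.5% passed both thresholds.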

How the data were processed

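The samples were 3 siControl and 3 siPVT1 mRNA libraries of SK-OV3 cells, grouped by their titles. The authors aligned 75-base single-end reads to GENCODE v35 transcripts (GRCh38.p13) with STAR and counted them with Salmon, and the submitters' processing notes give STAR 2.7.3a, Salmon 0.14.1, bcl2fastq 2.20.0 and DESeq2 1.28.1. The deposited values are estimated counts, one row to a gene symbol, as whole numbers without normalisation. The strand setting is not given in the sources used here. Salmon divides reads between similar transcripts by estimation, so counts of close paralogs and overlapping genes are uncertain. All 6 sample columns were mapped, and 25268 genes were at 0 in every library. The depth of 28383171 to 35059576 counts limits precision mainly for genes as low as TFEB.

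Counts were scaled by TMM factors and genes with at least 5 normalised counts in at least 3 libraries were kept. The 2 groups were compared in all 19008 genes with the quasi-likelihood test of edgeR 4.0.16 in R 4.3.3, 2-sided, with Benjamini-Hochberg adjustment over all of them. The test was tried on simulated data first. That simulation had few changed genes and the same spread in both groups, unlike these data, so it does not show how the test behaves here. The thresholds, an adjusted p of 0.05 and a log2 fold change of 1, follow the study's methods, which used DESeq2. Here 2248 genes were higher and 1833 lower past both, far more than the paper reported. The reason for this difference was not tested. Normalised counts are counts divided by the TMM-scaled library size, on the scale of the mean library. Paralog shares were tested by exact permutation. The symbols were matched to GENCODE v44 for lengths and positions and to RefSeq for promoters. Each library was counted as 1 sample. Same-group libraries differed beyond sampling noise (chi-square per degree of freedom 1.52 to 30.1), which does not show whether they came from separate cultures.

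The members and lists were chosen with earlier results of these data known. Values per library are given for members past both thresholds, members just inside and outside the fold threshold, the LC3 and GABARAP family, the lysosomal regulators, and up to 4 members with the smallest p in each of the 4 groups. In the other lists up to 3 genes past both thresholds with the smallest p are named. The alternatives were DESeq2 1.42.0, its size factors, total count scaling, other filters, a replicate block, a test against a fold of 2, other transcript lengths and leaving out each library. The other lengths were tried for the order of levels after seeing the data.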

Additional observations from a re-analysis of the deposited data

How the results depend on the processing

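The 3 higher and 2 lower members past both thresholds were 3 to 4 and 2 without each library in turn, the fourth being OPTN without siPVT1 replicate 3. A test against a fold of 2 (glmTreat) kept 2 higher and 1 lower member, and 4 higher genes of the other lists in place of 8, among 1184 higher and 792 lower genes of all tested (2248 and 1833 with the separate thresholds). By the adjusted p alone, members numbered 13 to 14 higher and 9 to 16 lower without each library in turn. Scaling by the total count alone moved the median log2 fold change of all tested genes to −0.15 and that of the members to −0.26 (−0.11 with TMM), gave 20 lower members by the adjusted p in place of 13, and 10 lower genes of the other lists past both thresholds in place of 4, a count that was 4 to 7 without each library in turn. DESeq2, its size factors in edgeR and filterByExpr changed no member's call by the adjusted p, and no member's log2 fold change changed sign under any alternative. The share of GABARAPL2 in the ATG8 family, 0.0729 points higher in siPVT1, was −0.0976 points with the longest transcript and ranged from −0.561 to 0.516 points without each library in turn. That of ATG2A, 1.63 points, ranged from −0.481 to 3.71. The cause of these shifts was not tested.

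No shared effect of replicate number was seen. Same-numbered deviations correlated at −0.037, 0.029 and 0.002, and 1 of 3 siPVT1 libraries correlated best with its own number. With so few libraries this cannot show whether the cultures were paired, and the labels do not say. With the replicate block 13 members were higher and 13 lower by the adjusted p. With 3 libraries a group the exact tests cannot go below p = 0.1, and for MAP1LC3A, at most 2.23 normalised counts, no difference was detectable at this depth.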
